A study of Rattus norvegicus with 32 samples.

Results

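Liver sinusoidal endothelial cells (LSECs) of rats exposed to carbon tetrachloride (CCl4) for 2 weeks were compared with LSECs of untreated rats. The members are 11 of the 32 libraries of the series and were chosen by label, with 5 libraries from rats treated for 2 weeks (acute) and 6 libraries labelled Untreated rat (healthy). All rats were of the Wistar Han strain, the exposed ones male as the methods state, and the labels name no genetic change. Acute rats inhaled CCl4, a toxin that kills hepatocytes around the central veins, and the study's methods place LSEC isolation several days after the last exposure. Rats of the CCl4 model drank water with phenobarbital, and whether the healthy rats received it is not stated. LSECs of both groups were obtained by perfusion and digestion of the liver and an iodixanol density gradient, and no sort on a surface marker is named in the labels, so that other liver cells can remain in a preparation. The labels do not say whether RNA was taken from fresh or cultured cells, or when each library was made, and time on CCl4 cannot be told apart from such differences.

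LSECs line the liver capillaries. They lack a basement membrane, are perforated by fenestrae and clear waste from blood through scavenger receptors, and they release signals that set the zonation of hepatocytes, the quiescence of stellate cells and the tone of the vessel. In injured livers LSECs are known to lose these features, a change called capillarization, and in culture they lose them within days. The comparison asked which genes of these cells were already different after 2 weeks, the stage the study calls acute injury.

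Sequencing depth was between 32037715 and 36916992 (median 32427552) reads counted on genes per acute library and between 33742382 and 41228835 (median 34442360) per healthy library. In a principal component analysis of log2 CPM (counts scaled to a common library total, with TMM scaling factors and a prior count of 2), the first component held 80.9% of the variance and separated all acute from all healthy libraries. The Euclidean distance over genes was between 61.6 and 113 among acute libraries, between 77.5 and 172 among healthy libraries and between 245 and 324 between the groups. The cells were checked against their label. In acute libraries Cdh5, the endothelial cadherin, was at 1530.4, 2018, 1439, 1274 and 1277 CPM and Lyve1 at 814, 777, 665, 1092 and 657 CPM. These genes were thus counted in every acute library, but they were among the few endothelial markers that did not pass the test described below. Of 22 pan-endothelial genes tested, 19 were lower in acute libraries and 0 higher. Erg, an endothelial transcription factor gene held in another list, was higher. Of 17 scavenger and endocytic receptors tested, 13 were lower and 1 higher, where 37.9% of all genes tested were lower.

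**Figure D1:**
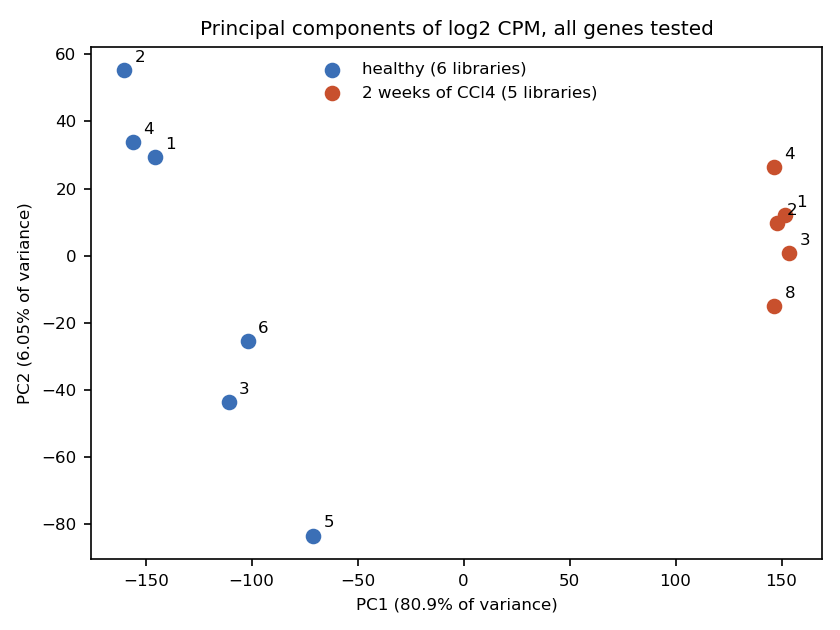
Principal components of log2 CPM over all genes tested, with each point a library numbered by its replicate. The 5 acute libraries lie at 146 to 153 on the first component (80.9% of variance), the 6 healthy libraries at -160 to -71.1, with healthy replicate 5 nearest to the acute group.

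Of 14317 genes tested with limma-voom, 10502 (73.4%) were called, which here means a Benjamini-Hochberg adjusted p under 0.05 and a fold-change above 1.5. Of all genes tested, 5079 (35.5%) were higher and 5423 (37.9%) lower in acute LSECs, and the groups did not overlap in 8648 genes (60.4%). Large falls were more numerous than large rises. A log2 fold change beyond 3 was found in 692 genes that rose and 1934 that fell, and one beyond 5 in 103 and 690. The median log2 fold change was -0.09, and when libraries were scaled by their totals alone the median moved up by 0.41 and the split of called genes from 48.4% higher to 58.2% higher. No gene was called in opposite directions under these scalings. These shares are the background against which every group of genes is read.

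The 12 largest rises, among genes with at least a mean log2 CPM of 3 and groups that did not overlap, held signalling and metabolic genes of several kinds. Mmd (ENSRNOG00000002436), named for monocyte to macrophage differentiation, was between 6.70 and 14.5 CPM (median 9.34) in healthy libraries and at 2032, 1872, 1876, 2303 and 2304 CPM in acute libraries (log2 fold change 7.79 ± 0.20, adjusted p = 2.46e-10; ± is the SE from limma-voom). Akr1b10, an aldo-keto reductase, was between 17.7 and 60.8 CPM (median 28.6) in healthy libraries and at 6958, 6582, 4925, 3629.6 and 6333 CPM in acute ones (log2 fold change 7.53 ± 0.28, adjusted p = 1.77e-09). In both genes every acute library lay far above every healthy one. Also among them were the chemokine Cxcl3 (log2 fold change 8.26), the aryl hydrocarbon receptor target Cyp1b1 (7.79), the tyrosine phosphatase-like Ptprn (6.65), the AMP deaminase Ampd3 (5.89), the microtubule protein Map1b (5.73), Cobll1 (5.73), the reelin receptor Lrp8 (5.66) and the secreted hormone Stc1 (5.50).

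The 12 largest falls divided into genes of immediate-early, vessel wall and hepatocyte biology. Fosb, a subunit of the AP-1 transcription factor, was between 7549 and 14085 CPM (median 9429.8) in healthy libraries and at 9.88, 9.26, 15.1, 3.81 and 31.5 CPM in acute ones (log2 fold change -9.83 ± 0.41, adjusted p = 2.93e-09), and Fos fell with it (log2 fold change -8.38 ± 0.45, adjusted p = 1.25e-08). Vwf, the von Willebrand factor made by endothelium, was between 1060.3 and 3558 CPM (median 1969) in healthy libraries and at 10.8, 16.3, 6.51, 4.64 and 12.3 CPM in acute ones (log2 fold change -7.74 ± 0.39, adjusted p = 8.32e-09). Apold1, an early response gene of endothelium, was between 1649 and 2042 CPM (median 1883) in healthy libraries and at 8.55, 5.64, 10, 3.79 and 30.5 CPM in acute ones (log2 fold change -7.75 ± 0.38, adjusted p = 6.72e-09). These endothelial and early genes were high in every healthy library. Islr (log2 fold change -9.41) and Eln, the elastin gene (-9.27), also fell. Pck1, Adh1, Mat1a, Bhmt and Uox, also among the largest falls, are enzymes known from hepatocytes, and their levels varied widely among healthy libraries, from 58.1 to 1034 CPM for Pck1.

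Next, 57 lists of genes with related roles were described by counts. All 5 tested members of the list named for neutrophil-attracting CXC chemokines rose, with the platelet factor gene Pf4 counted among them. Among lists with 9 or more members tested, those furthest above the background for rises were the aryl hydrocarbon receptor pathway, the proteasome, histone and DNA modifying enzymes and p53 targets, and those furthest above the background for falls were hepatocyte markers, portal vein-side endothelial genes, the Notch pathway, pan-endothelial genes, antigen presentation genes and collagens.

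**Figure D2:**
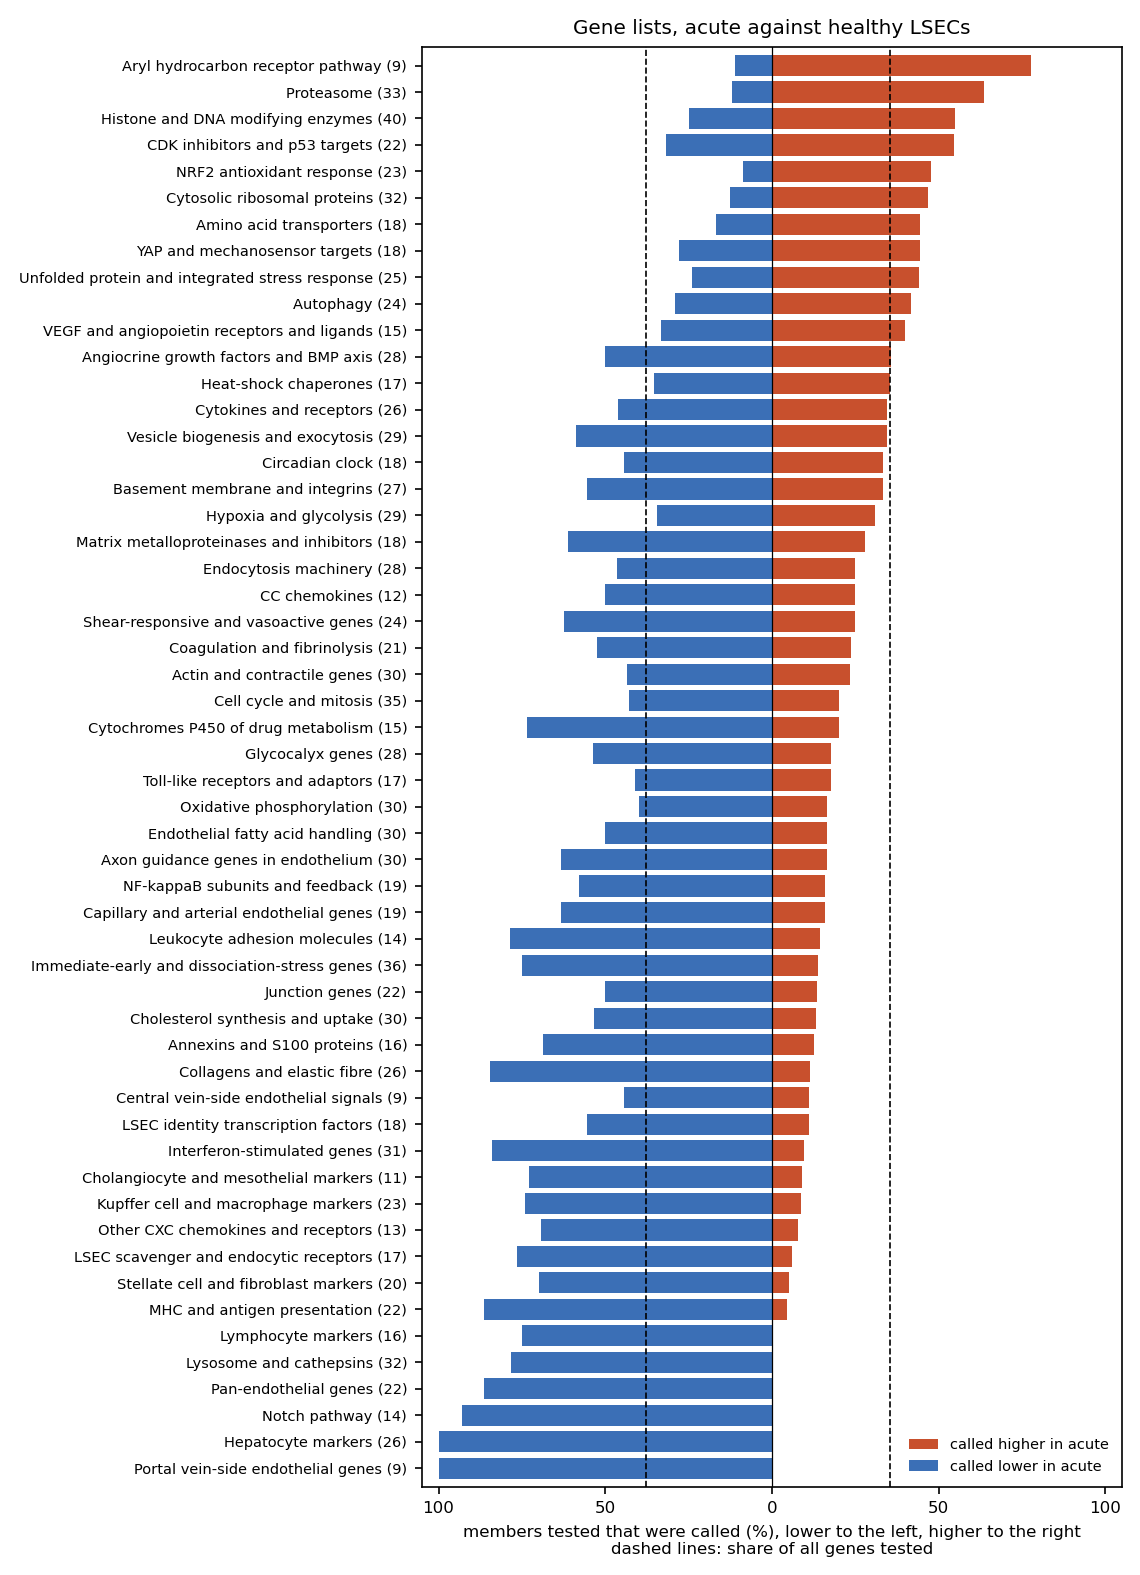
Share of the tested members of each gene list called higher (right, red) or lower (left, blue) in acute LSECs, with the number tested in parentheses, for lists with 9 or more. Dashed lines mark the share of all genes tested (35.5% higher, 37.9% lower), and the lists run from 7 of 9 members higher (aryl hydrocarbon receptor pathway) to 26 of 26 lower (hepatocyte markers).

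Scavenger and endocytic receptors, which give LSECs their clearance function, were mostly lower in acute LSECs. Of 17 members tested, 13 fell and 1 rose (median log2 fold change -2.08). Stab1, which takes up modified lipoproteins, was between 2698 and 6433 CPM (median 4528) in healthy libraries and at 143, 137, 135, 79.1 and 210.2 CPM in acute ones (log2 fold change -5.04 ± 0.26, adjusted p = 8.74e-09). Stab2, the hyaluronan receptor of LSECs, was between 1408 and 4489 CPM (median 3201) and at 136, 102, 107, 93.6 and 263 CPM (log2 fold change -4.52 ± 0.33, adjusted p = 1.53e-07). The groups did not overlap in either stabilin. The mannose receptor Mrc1 was between 1251 and 3322 CPM (median 1786) and at 169, 157, 145, 139 and 152 CPM (log2 fold change -3.71 ± 0.22, adjusted p = 3.16e-08), and Fcgr2b, the Fc receptor used to mark LSECs, between 1465 and 3911 CPM (median 2066) and at 561, 476, 549, 662 and 569 CPM (log2 fold change -2.08 ± 0.25, adjusted p = 1.15e-05). Fcgr2b was still well counted in every acute library. The C-type lectins Clec4g (log2 fold change -3.12 ± 0.39, adjusted p = 1.42e-05) and Clec4m (log2 fold change -4.92 ± 0.38, adjusted p = 2.58e-07) and the neonatal Fc receptor Fcgrt (log2 fold change -3.62 ± 0.23, adjusted p = 4.2e-08) fell as well. Lyve1, a hyaluronan receptor, was between 464 and 2169 CPM (median 1106) in healthy libraries and at 814, 777, 665, 1092 and 657 CPM in acute ones and did not pass the test (log2 fold change -0.49 ± 0.33, adjusted p = 0.19), and neither did the scavenger receptors Msr1 (log2 fold change 0.26 ± 0.47, adjusted p = 0.62) and Cd36 (log2 fold change 0.57 ± 0.66, adjusted p = 0.448). The summed level of the receptors was between 13717 and 20472 CPM in healthy libraries and between 2680 and 3286 CPM in acute ones.

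Of 22 pan-endothelial genes tested, 19 fell and 0 rose (median log2 fold change -3.14). Eng, the co-receptor for BMP9 and one of the 10 most counted genes of healthy LSECs, was between 3798 and 7967 CPM (median 6148) in healthy libraries and at 529.5, 528, 499.9, 458 and 576 CPM in acute ones (log2 fold change -3.55 ± 0.18, adjusted p = 9.34e-09). The VEGF receptors fell together, Kdr from between 1930.2 and 5175 CPM (median 2708) to 166, 165, 207, 126 and 459.7 CPM (log2 fold change -3.96 ± 0.35, adjusted p = 6.63e-07), Flt1 with log2 fold change -3.27 ± 0.26, adjusted p = 2.65e-07 and Flt4 with log2 fold change -2.59 ± 0.16, adjusted p = 3.66e-08. Tie1, an orphan receptor of the angiopoietin system, also fell (log2 fold change -3.00 ± 0.17, adjusted p = 1.97e-08). Cldn5, the claudin of tight endothelial junctions, was counted in every healthy library, at up to 4.06 CPM, and had 0 counts in all 5 acute libraries, so that its mean was at least 21.3-fold lower when acute libraries are set at 3 counts each, and its lowest healthy library at least 6.63-fold above the highest such floor. It is one of 28 genes listed at 0 in every acute library, which are described further on. Cdh5 (log2 fold change 0.39 ± 0.24, adjusted p = 0.156), the latrophilin Adgrl4 (log2 fold change 0.60 ± 0.35, adjusted p = 0.138) and Calcrl, a receptor component for adrenomedullin (log2 fold change 0.56 ± 0.49, adjusted p = 0.309), did not pass the test. Of 18 transcription factors of LSEC identity tested, 10 fell and 2, Erg and Lmo2, rose, beside 37.9% lower and 35.5% higher among all genes tested. Gata4, which maintains the sinusoidal type of endothelium, was between 546 and 876 CPM (median 821) in healthy libraries and at 197, 208, 244, 168 and 288 CPM in acute ones (log2 fold change -1.78 ± 0.18, adjusted p = 2.42e-06). Maf (log2 fold change -3.61 ± 0.45, adjusted p = 1.27e-05), Sox18 (log2 fold change -3.64 ± 0.38, adjusted p = 3.04e-06) and the lymphatic regulator Prox1 (log2 fold change -2.98 ± 0.36, adjusted p = 1.14e-05) fell, Lmo2, a partner of Gata factors, rose (log2 fold change 1.19 ± 0.18, adjusted p = 7.17e-05), and Sox17 (log2 fold change -0.59 ± 0.31, adjusted p = 0.103) and Nr2f2 (log2 fold change -0.45 ± 0.37, adjusted p = 0.286) did not pass the test.

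Genes of capillary and arterial endothelium did not rise as a group. Of 19 tested, 12 fell and 3 rose (median log2 fold change -1.91), beside 37.9% lower and 35.5% higher among all genes tested. Aqp1, the water channel, was among the 10 most counted genes in healthy libraries and was between 2705 and 13693 CPM (median 6046) there and at 9.93, 20.6, 70.2, 79.1 and 30.4 CPM in acute ones (log2 fold change -7.64 ± 0.56, adjusted p = 1.54e-07). Plvap, which forms the diaphragms of endothelial pores (log2 fold change -6.31 ± 0.43, adjusted p = 8.33e-08), the gap junction genes Gja5 (log2 fold change -8.24 ± 0.61, adjusted p = 1.67e-07) and Gja4 (log2 fold change -6.59 ± 0.46, adjusted p = 1.03e-07) and Cd34 (log2 fold change -3.52 ± 0.50, adjusted p = 3.83e-05) fell. The 3 that rose were the basement membrane gene Nid1 (log2 fold change 2.13 ± 0.36, adjusted p = 0.000181) and the caveolin genes Cav1 (log2 fold change 1.75 ± 0.21, adjusted p = 1.17e-05) and Cav2 (log2 fold change 1.64 ± 0.48, adjusted p = 0.00777).

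**Figure D3:**
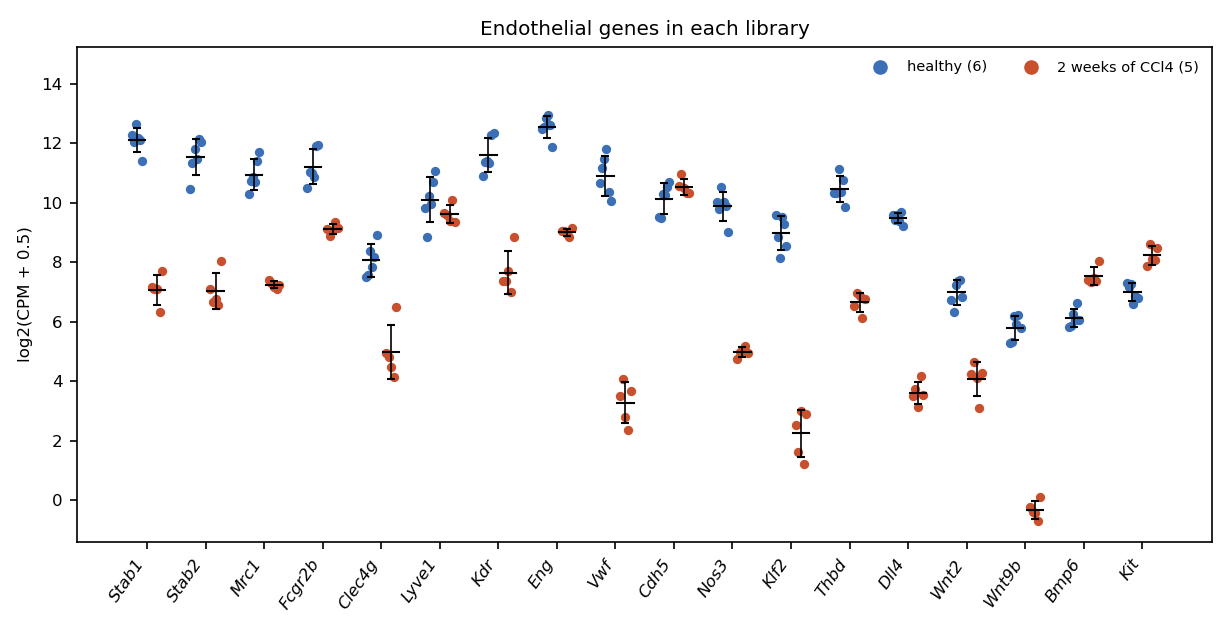
Log2(CPM + 0.5) of 18 endothelial genes in each library, healthy in blue and acute in red, with the group mean as a line and the SD as an error bar. Stab1, Vwf, Dll4 and Wnt9b show separate groups, Lyve1 and Cdh5 overlapping ones, and Bmp6 and Kit are higher in acute libraries.

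Notch signalling, which passes between touching cells and sets arterial identity, had 13 of 14 tested members lower and none higher (median log2 fold change -2.94). The ligand Dll4 was between 597 and 831 CPM (median 722) in healthy libraries and at 11, 12.8, 8.38, 17.4 and 11.1 CPM in acute ones (log2 fold change -5.92 ± 0.19, adjusted p = 1.23e-09). The target gene Hes1 was between 349 and 863 CPM (median 454) and at 20.8, 18.5, 21.5, 14.5 and 22.2 CPM (log2 fold change -4.66 ± 0.22, adjusted p = 6.22e-09), and Hey1 (log2 fold change -5.39 ± 0.51, adjusted p = 1.28e-06), the receptor Notch1 (log2 fold change -2.54 ± 0.15, adjusted p = 3.32e-08) and the fringe Lfng (log2 fold change -2.91 ± 0.37, adjusted p = 1.54e-05) followed the same direction. Notch2 did not pass the test (log2 fold change -0.50 ± 0.36, adjusted p = 0.224). All 9 portal vein-side genes fell, Ltbp4 (log2 fold change -4.83 ± 0.22, adjusted p = 4.95e-09), Ntn4 (log2 fold change -3.77 ± 0.35, adjusted p = 1.05e-06) and Sema3g (log2 fold change -3.69 ± 0.36, adjusted p = 1.78e-06) among them. Among 9 central vein-side genes 4 fell and 1 rose, beside 37.9% lower and 35.5% higher among all genes tested. Wnt9b, one of the Wnt ligands by which endothelium keeps hepatocytes near the central vein in their pericentral programme, was between 38.9 and 74.7 CPM (median 58) in healthy libraries and at 0.357, 0.255, 0.236, 0.108 and 0.579 CPM in acute ones (log2 fold change -7.64 ± 0.44, adjusted p = 2.32e-08). Wnt2, the other such ligand, was between 80.6 and 171 CPM (median 132) and at 18.5, 24.7, 16.8, 8.15 and 18.7 CPM (log2 fold change -2.96 ± 0.29, adjusted p = 1.63e-06). Rspo3, which amplifies Wnt signals, was between 8.50 and 30.6 CPM (median 13.6) and at 16.7, 16.9, 12.9, 7.11 and 25.5 CPM and did not pass the test (log2 fold change 0.02 ± 0.37, adjusted p = 0.962), and Kit, a receptor that marks central LSECs, rose (log2 fold change 1.24 ± 0.19, adjusted p = 6.62e-05).

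Vasoactive and flow-responsive genes changed in both directions, with 15 of 24 tested members lower and 6 higher, beside 37.9% and 35.5% of all genes tested. Klf2, the transcription factor that endothelium induces under laminar flow, was between 281 and 774 CPM (median 539.5) in healthy libraries and at 5.26, 2.58, 7.56, 1.82 and 6.88 CPM in acute ones (log2 fold change -6.95 ± 0.41, adjusted p = 2.91e-08). Its known target Nos3, the endothelial nitric oxide synthase, was between 522 and 1483 CPM (median 998) and at 26.3, 31.1, 31.8, 36.1 and 30.7 CPM (log2 fold change -4.93 ± 0.23, adjusted p = 4.71e-09), and Thbd, thrombomodulin, between 933 and 2256 CPM (median 1309) and at 92.1, 124, 115, 70.2 and 109 CPM (log2 fold change -3.83 ± 0.23, adjusted p = 2.7e-08). In these 3 genes the lowest healthy library lay above the highest acute one. Ece1, which processes endothelin (log2 fold change -3.37 ± 0.15, adjusted p = 4.48e-09), and Ace (log2 fold change -5.52 ± 0.37, adjusted p = 7.36e-08) fell. Prostanoid enzymes divided, as Ptgis (log2 fold change -3.54 ± 0.42, adjusted p = 8.52e-06) and Ptgs1 (log2 fold change -3.42 ± 0.22, adjusted p = 5.48e-08), which serve prostacyclin synthesis, fell, while the inducible cyclooxygenase Ptgs2 was between 8.48 and 28.5 CPM (median 21.8) in healthy libraries and at 174, 48.3, 204, 101 and 532 CPM in acute ones (log2 fold change 3.15 ± 0.55, adjusted p = 0.000216) and Ptges rose (log2 fold change 4.64 ± 0.90, adjusted p = 0.000463). Adm, the vasodilator adrenomedullin, was between 32.4 and 65 CPM (median 57.1) and at 1183, 807, 1029, 799 and 1535 CPM (log2 fold change 4.34 ± 0.23, adjusted p = 1.06e-08).

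Angiocrine growth factors are the signals that endothelium sends to hepatocytes and stellate cells. Of 28 tested, 10 were higher and 14 lower, where 35.5% of all genes tested were higher and 37.9% lower. Inhba, which encodes the activin A subunit, rose (log2 fold change 3.96 ± 0.76, adjusted p = 0.000442), and so did Fst, which encodes the activin inhibitor follistatin (log2 fold change 4.33 ± 0.43, adjusted p = 2.17e-06). Bmp6, by which LSECs inform hepatocytes of iron, was between 56.7 and 99.4 CPM (median 66.3) in healthy libraries and at 171, 160.3, 179, 163 and 267 CPM in acute ones (log2 fold change 1.41 ± 0.19, adjusted p = 2.3e-05). Pdgfa (log2 fold change 2.31 ± 0.32, adjusted p = 3.19e-05) and Lif (log2 fold change 2.22 ± 0.42, adjusted p = 0.000413) rose. Smad6 (log2 fold change -4.45 ± 0.27, adjusted p = 2.91e-08), Id1 (log2 fold change -2.80 ± 0.20, adjusted p = 1.11e-07) and Id3 (log2 fold change -1.98 ± 0.17, adjusted p = 5.22e-07), known to answer BMP signals, fell, as did the receptor Acvrl1 (log2 fold change -4.21 ± 0.18, adjusted p = 3.33e-09), while the inhibitory Smad7 rose (log2 fold change 1.22 ± 0.34, adjusted p = 0.00562). Tgfb1 (log2 fold change -2.28 ± 0.28, adjusted p = 1.16e-05) and the heparin-binding ligand Hbegf (log2 fold change -2.30 ± 0.33, adjusted p = 4.87e-05) also fell. In the VEGF and angiopoietin system 6 of 15 tested members rose and 5 fell, near the 35.5% higher and 37.9% lower of all genes tested. The ligands Vegfb and Vegfc and the co-receptors Nrp1 and Nrp2 were not called, though Vegfb, Nrp1 and Nrp2 were called under alternatives. Vegfa was between 7.81 and 24.1 CPM (median 14.1) in healthy libraries and at 85.8, 58.1, 122, 72.3 and 119 CPM in acute ones (log2 fold change 2.64 ± 0.32, adjusted p = 1.03e-05), Pgf, a ligand of Flt1, between 0.921 and 5.45 CPM (median 1.79) and at 15, 30.5, 35.5, 41.3 and 120.3 CPM (log2 fold change 4.36 ± 0.63, adjusted p = 4.69e-05), and Angpt2, which opposes Tie2 signalling, between 4.78 and 10 CPM (median 8.82) and at 50.4, 199.8, 48.8, 118 and 44.8 CPM (log2 fold change 3.32 ± 0.43, adjusted p = 1.9e-05). The tip cell genes Esm1 (log2 fold change 4.16 ± 0.71, adjusted p = 0.000173) and Apln (log2 fold change 3.24 ± 0.50, adjusted p = 7.95e-05) rose with them.

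Chemokines differed by class. All 5 tested members of the neutrophil-attracting CXC list rose, and the groups did not overlap in 2 of them. Among all genes tested the groups did not overlap in 60.4%. The list held the platelet factor gene Pf4 beside Cxcl1, Cxcl2, Cxcl3 and Cxcl6. Cxcl1 was between 439.9 and 2199 CPM (median 759) in healthy libraries and at 2542, 1189, 3023, 3474 and 5300.4 CPM in acute ones (log2 fold change 1.75 ± 0.42, adjusted p = 0.00206), with the highest healthy library inside the acute range. Cxcl2 showed the same overlap (log2 fold change 2.06 ± 0.39, adjusted p = 0.000423). Cxcl3 was between 0.667 and 2.87 CPM (median 1.02) and at 265, 124, 402, 651 and 547 CPM (log2 fold change 8.26 ± 0.58, adjusted p = 1.02e-07). Cxcl6, with 16 counts over all healthy libraries, was at 42.9, 11.5, 49.8, 109 and 40.5 CPM in acute ones (log2 fold change 9.19 ± 1.04, adjusted p = 5.93e-06). The chemokine receptors of neutrophils, Cxcr1 and Cxcr2, were too low to be tested. The interferon-induced CXC chemokines, which attract T cells, went the other way. Cxcl10 was between 1084 and 3449 CPM (median 2677) in healthy libraries and at 27.8, 27.2, 66, 17.6 and 103 CPM in acute ones (log2 fold change -5.95 ± 0.44, adjusted p = 1.67e-07), and Cxcl9 (log2 fold change -5.00 ± 0.67, adjusted p = 2.5e-05) and Cxcl11 (log2 fold change -4.85 ± 0.59, adjusted p = 1.12e-05) fell too, as part of 9 of 13 members lower and 1 higher. Among CC chemokines 3 of 12 rose and 6 fell, beside 35.5% higher and 37.9% lower among all genes tested. The monocyte attractant Ccl2 was between 83.6 and 679.6 CPM (median 151) and at 2180.5, 1246, 2372, 3562 and 2796 CPM (log2 fold change 3.81 ± 0.49, adjusted p = 1.68e-05), its neighbour Ccl7 between 9.18 and 30.8 CPM (median 18.6) and at 186, 112, 271, 422 and 381 CPM (log2 fold change 3.78 ± 0.37, adjusted p = 1.8e-06), and Ccl24, an eosinophil attractant, between 295 and 550.5 CPM (median 379) and at 7.17, 6.28, 8.80, 8.43 and 23.7 CPM (log2 fold change -5.43 ± 0.30, adjusted p = 1.61e-08).

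RefSeq promoters are shown for 4 of these inflammatory genes, because the letters GGAATTTCC, one form of the NF-kappaB site, stand before genes that moved in opposite directions. The motif was searched on both strands in the 250 bases before the start of 33469 RefSeq genes (GRCr8), of which 0.287% held it, and overlaps none of the other motifs reported here. Capitals mark the match, which reads GGAAATTCC where it lies on the other strand. Cxcl1 and Cxcl6 rose, Cxcl10 and Icam1, an adhesion molecule, fell.
Cxcl1, chr14:17479366-17479434, minus strand: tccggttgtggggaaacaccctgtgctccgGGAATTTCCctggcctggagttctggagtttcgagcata
Cxcl6, chr14:17596466-17596534, minus strand: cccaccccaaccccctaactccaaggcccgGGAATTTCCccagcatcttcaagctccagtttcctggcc
Cxcl10, chr14:15988850-15988918, plus strand: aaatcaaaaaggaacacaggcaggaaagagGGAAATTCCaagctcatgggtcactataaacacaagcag
Icam1, chr8:27829597-27829665, plus strand: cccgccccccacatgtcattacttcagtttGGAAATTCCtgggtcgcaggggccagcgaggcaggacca
The first base of the match lay 83 bases before the start in Cxcl1, 87 in Cxcl6, 186 in Cxcl10 and 218 in Icam1. Among genes with a matched promoter, 0.429% of those called higher, 0.423% of those called lower and 0.343% of those not called held the motif.

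Adhesion molecules for leukocytes were lower, with 11 of 14 tested members down and 2 up (median log2 fold change -2.52). Icam1, which binds leukocyte integrins and was the second most counted gene of healthy LSECs, was between 5166 and 18994 CPM (median 10145) there and at 352, 237, 333, 338 and 609 CPM in acute libraries (log2 fold change -4.83 ± 0.31, adjusted p = 4.67e-08). Vcam1 was between 1015 and 3699.5 CPM (median 1603) and at 74.1, 46, 258, 40.1 and 567 CPM (log2 fold change -3.82 ± 0.64, adjusted p = 0.00016), and the selectin Selp between 118 and 863 CPM (median 512) and at 21.5, 32.8, 29.7, 45.9 and 22.4 CPM (log2 fold change -3.68 ± 0.47, adjusted p = 1.66e-05). Alcam, which binds CD6 on T cells, rose from between 2.79 and 9.33 CPM (median 3.79) to 113, 53.4, 75, 61.5 and 126 CPM (log2 fold change 4.20 ± 0.34, adjusted p = 3.94e-07). Of 26 cytokine genes 9 were higher and 12 lower, where 35.5% of all genes tested were higher and 37.9% lower. The colony-stimulating factor Csf3, which raises neutrophil output, was between 5.33 and 29.7 CPM (median 8.29) and at 164, 111, 170.3, 196 and 179 CPM (log2 fold change 4.08 ± 0.35, adjusted p = 5.16e-07), and Csf2 between 5.74 and 29 CPM (median 8.21) and at 97, 47, 155, 238 and 232 CPM (log2 fold change 3.78 ± 0.48, adjusted p = 1.74e-05). The alarmin Il33 rose (log2 fold change 1.92 ± 0.25, adjusted p = 1.97e-05). Tnf was between 25.6 and 115 CPM (median 68.7) in healthy libraries and at 2.25, 1.94, 2.13, 0 and 0 CPM in acute ones (log2 fold change -7.82 ± 1.28, adjusted p = 0.000126), and the apoptosis ligand Tnfsf10 (log2 fold change -6.34 ± 0.37, adjusted p = 2.7e-08) and Il10 (log2 fold change -5.56 ± 0.76, adjusted p = 2.86e-05) fell. With some acute libraries at 0 CPM the size of the Tnf fall is known only roughly, while every acute library lay below every healthy one. Of 19 NF-kappaB subunits and feedback genes, 11 fell, such as Tnfaip3 (log2 fold change -2.50 ± 0.40, adjusted p = 0.000102) and Bcl3 (log2 fold change -3.28 ± 0.35, adjusted p = 3.31e-06), and 3 rose, with the mitochondrial superoxide dismutase Sod2 among them (log2 fold change 1.85 ± 0.32, adjusted p = 0.000217).

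**Figure D4:**
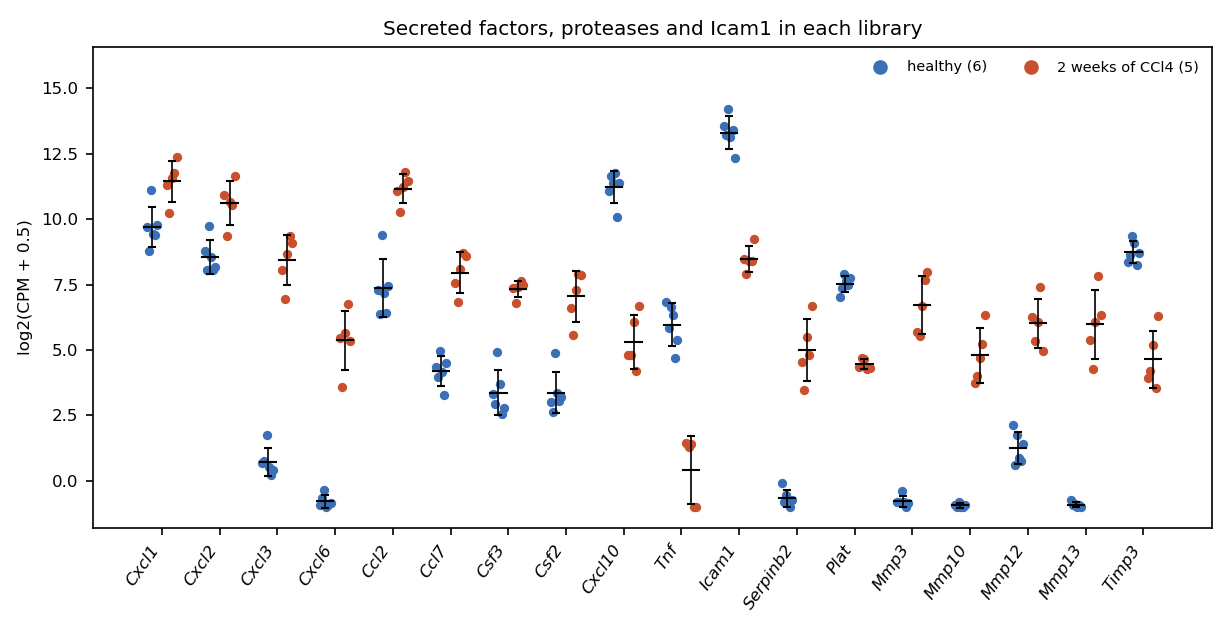
Log2(CPM + 0.5) of 17 secreted factor genes and Icam1 in each library, healthy in blue and acute in red, with the group mean as a line and the SD as an error bar. Serpinb2 and the metalloproteinases Mmp3, Mmp10 and Mmp13 are higher in every acute library, Cxcl10, Tnf, Icam1 and Plat lower, and Cxcl1 and Cxcl2 overlap between groups.

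Genes of clot formation and lysis moved in opposite directions. Serpinb2, an inhibitor of plasminogen activators, had 27 counts over all healthy libraries and was at 23, 10.5, 44.2, 27.7 and 103 CPM in acute ones (log2 fold change 8.25 ± 1.04, adjusted p = 1.47e-05). Tissue factor, F3, which starts coagulation, was between 0.413 and 1.99 CPM (median 1.25) and at 7.43, 3.78, 10.9, 11.2 and 33.1 CPM (log2 fold change 3.29 ± 0.61, adjusted p = 0.000341). The activators themselves fell, Plat from between 129 and 241 CPM (median 186) to 20.1, 25.4, 24.6, 18.8 and 19.3 CPM (log2 fold change -3.09 ± 0.18, adjusted p = 2.31e-08) and Plau with log2 fold change -2.13 ± 0.36, adjusted p = 0.000156, as did Adamts13, which cleaves von Willebrand factor (log2 fold change -5.53 ± 0.73, adjusted p = 2.33e-05), and Gas6, a ligand of the TAM receptors (log2 fold change -4.38 ± 0.24, adjusted p = 1.7e-08). In all, 11 of 21 tested members fell and 5 rose, beside 37.9% lower and 35.5% higher among all genes tested. Tfpi, the tissue factor pathway inhibitor gene, was among those that rose. The coagulation factor gene F8 and the serpin gene Serpine2 were among those that fell.

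Of 18 metalloproteinases and inhibitors tested, 5 rose and 11 fell, beside 35.5% higher and 37.9% lower among all genes tested. Mmp13, an interstitial collagenase, had 6 counts over all healthy libraries and was at 40.7, 18.9, 67.2, 225 and 79.7 CPM in acute ones (log2 fold change 10.67 ± 1.15, adjusted p = 3.9e-06). Mmp3, stromelysin-1, had 15 counts in healthy libraries and was at 51.1, 46.3, 101, 203 and 252 CPM (log2 fold change 10.48 ± 1.01, adjusted p = 1.53e-06), and Mmp10, stromelysin-2, had 4 and was at 12.8, 15.5, 25.3, 36.6 and 80.5 CPM (log2 fold change 9.82 ± 0.90, adjusted p = 1.03e-06). With so few healthy counts the size of these rises is known only roughly, while every acute library held at least 502 counts of each. Mmp12, an elastase, was between 1.02 and 3.88 CPM (median 1.77) in healthy libraries and at 76.4, 40.4, 67.3, 171 and 30.8 CPM in acute ones (log2 fold change 5.11 ± 0.55, adjusted p = 3.83e-06). Timp3, an inhibitor held in the matrix, fell from between 306 and 648 CPM (median 407) to 14.7, 18, 36.2, 11.3 and 77.8 CPM (log2 fold change -4.15 ± 0.42, adjusted p = 2.52e-06), and Timp1 (log2 fold change -2.50 ± 0.36, adjusted p = 4.58e-05), Mmp2 (log2 fold change -3.48 ± 0.43, adjusted p = 1.34e-05) and Adamts4 (log2 fold change -5.00 ± 0.36, adjusted p = 1.22e-07) fell. Mmp9 did not pass the test (log2 fold change 1.26 ± 0.80, adjusted p = 0.168).

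The promoters of Mmp13, Mmp12, Mmp3 and Mmp10 are shown because they share the AP-1 letters TGACTCA near the start. Adamts9, the other member that rose (log2 fold change 0.74 ± 0.31, adjusted p = 0.0432), was not among the list members that held these letters. The call of Adamts9 ended with edgeR's quasi-likelihood test (adjusted p = 0.051) and without any 1 of healthy replicates 2, 4 and 5 or acute replicates 1, 2, 3 and 8, where the adjusted p from limma-voom lay between 0.0526 and 0.106. The motif was searched on both strands in the same 250 bases, 4.05% of promoters held it, and it overlaps none of the other motifs reported here. The windows are the 100 bases before the RefSeq start (GRCr8), where the genes lie close together on one chromosome. Capitals mark the match, which reads TGAGTCA where it lies on the other strand.
Mmp13, chr8:12782729-12782828, plus strand: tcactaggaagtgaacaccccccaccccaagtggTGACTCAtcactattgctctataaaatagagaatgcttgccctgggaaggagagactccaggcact
Mmp12, chr8:12866552-12866651, plus strand: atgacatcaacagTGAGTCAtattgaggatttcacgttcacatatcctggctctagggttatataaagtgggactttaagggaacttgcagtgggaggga
Mmp3, chr8:12925181-12925280, plus strand: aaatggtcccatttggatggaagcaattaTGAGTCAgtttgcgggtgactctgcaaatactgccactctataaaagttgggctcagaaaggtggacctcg
Mmp10, chr8:12974607-12974706, plus strand: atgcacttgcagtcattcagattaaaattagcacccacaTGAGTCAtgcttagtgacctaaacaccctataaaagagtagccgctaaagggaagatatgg
The first base of the match lay 66, 87, 71 and 61 bases before the start. Of 15 list members with a promoter at hand, 5 held the motif, these 4 and Mmp7, which was too low to be tested. Among all genes with a matched promoter the motif was no more frequent in those called higher, at 2.69%, than in those called lower, at 3.89%, or not called, at 3.05%. The genes for AP-1 subunits moved apart, since Fosb, Fos, Junb (log2 fold change -4.96 ± 0.23, adjusted p = 4.89e-09) and Jun (log2 fold change -2.67 ± 0.29, adjusted p = 4.5e-06) fell while Fosl1 was between 35.8 and 146 CPM (median 72.7) in healthy libraries and at 400.3, 384, 378, 192 and 538 CPM in acute ones (log2 fold change 2.37 ± 0.35, adjusted p = 5.46e-05). A match describes letters and is no evidence of binding.

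Matrix genes were mostly lower. Of 26 collagen and elastic fibre genes tested, 22 fell and 3 rose (median log2 fold change -3.00). Eln was between 91 and 239 CPM (median 189.7) in healthy libraries and at 0.434, 0.383, 0.236, 0.152 and 0.213 CPM in acute ones (log2 fold change -9.27 ± 0.50, adjusted p = 1.31e-08), and Fbln2 (log2 fold change -7.53 ± 0.40, adjusted p = 1.26e-08), Emilin1 (log2 fold change -6.33 ± 0.25, adjusted p = 2.26e-09) and Col3a1 (log2 fold change -5.54 ± 0.49, adjusted p = 7.79e-07) fell. Ltbp2, an elastic fibre protein, rose (log2 fold change 3.17 ± 0.35, adjusted p = 5.03e-06). Of 27 basement membrane and integrin genes tested, 9 were higher and 15 lower, beside 35.5% and 37.9% of all genes tested. Itgb1 was between 281 and 635 CPM (median 413) and at 1692, 1784, 1725, 1270.2 and 2340.5 CPM (log2 fold change 2.06 ± 0.24, adjusted p = 8.59e-06), Itgav between 13.7 and 29.6 CPM (median 19.6) and at 287, 200.4, 306, 115 and 793 CPM (log2 fold change 3.78 ± 0.42, adjusted p = 5.2e-06), and Itga2 (log2 fold change 6.89 ± 0.74, adjusted p = 3.78e-06) and Itga1 (log2 fold change 2.22 ± 0.40, adjusted p = 0.000282), subunits of collagen receptors, rose. Itga5, a subunit of the fibronectin receptor (log2 fold change -1.66 ± 0.29, adjusted p = 0.000235), and Itga4 (log2 fold change -2.26 ± 0.48, adjusted p = 0.000876) fell. The matrix genes Fn1 (log2 fold change -3.81 ± 0.41, adjusted p = 3.68e-06), Vtn (log2 fold change -5.30 ± 1.05, adjusted p = 0.000544) and Sparc (log2 fold change -3.30 ± 0.21, adjusted p = 4.36e-08) fell. Cytoskeletal genes divided, with Tpm4 (log2 fold change 3.04 ± 0.19, adjusted p = 4.94e-08) and Actn1 (log2 fold change 2.79 ± 0.15, adjusted p = 1.16e-08) higher and Tagln2 (log2 fold change -3.27 ± 0.23, adjusted p = 1.27e-07) lower.

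Immediate-early genes, which cells switch on within minutes of a stimulus and which tissue digestion is known to induce, were at very high levels in healthy libraries. Of 36 tested, 27 fell and 5 rose (median log2 fold change -3.32), and the summed level was between 52194 and 82980 CPM in healthy libraries and between 4101 and 9291 CPM in acute ones. Zfp36, which destabilizes cytokine mRNA, was the most counted gene of healthy LSECs, between 7534 and 14292 CPM (median 12287), and was at 99.6, 73.6, 82.9, 69.2 and 179 CPM in acute ones (log2 fold change -6.93 ± 0.26, adjusted p = 1.77e-09). Egr1 was between 2314 and 6822 CPM (median 5066) and at 88.9, 54.9, 63.1, 53.9 and 92 CPM (log2 fold change -6.06 ± 0.27, adjusted p = 3.59e-09). The inducible heat-shock gene Hspa1a was between 1798 and 7603 CPM (median 5504) and at 58.2, 34.8, 601, 23.6 and 468 CPM (log2 fold change -5.46 ± 0.82, adjusted p = 6.56e-05). Among the members that rose were Myc (log2 fold change 2.47 ± 0.31, adjusted p = 1.58e-05) and the connective tissue growth factor gene Ctgf (log2 fold change 3.60 ± 0.26, adjusted p = 1.17e-07). Klf2 is itself a member of this list. Icam1 and the interferon chemokines were lower in acute libraries as well, as were 37.9% of all genes tested. The part of cell handling in these falls was not tested.

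The aryl hydrocarbon receptor, a sensor of aromatic compounds, had 7 of 9 tested pathway members higher and 1 lower (median log2 fold change 2.21). Cyp1b1 was between 1.59 and 4.51 CPM (median 3.02) in healthy libraries and at 492, 481, 712, 899.7 and 581 CPM in acute ones (log2 fold change 7.79 ± 0.29, adjusted p = 1.77e-09). Cyp1a1, the classic target, was between 0.0736 and 0.514 CPM (median 0.239) and at 62.5, 272, 173, 406 and 46.9 CPM (log2 fold change 9.09 ± 0.97, adjusted p = 3.75e-06). The repressor Ahrr (log2 fold change 5.83 ± 0.61, adjusted p = 2.95e-06) and the receptor Ahr itself (log2 fold change 2.21 ± 0.27, adjusted p = 1.21e-05) rose. Cyp1a2, a target expressed in hepatocytes, fell (log2 fold change -5.85 ± 1.43, adjusted p = 0.00242). In the list named for drug-metabolizing cytochromes 11 of 15 tested members fell, with Cyp1a2 and the reductase gene Por counted among them. Of all genes tested, 37.9% were lower. Cyp2b2, a target of phenobarbital in hepatocytes, was at 1.25 ± 1.06 CPM in healthy and 0.968 ± 0.960 CPM in acute libraries (mean ± SD) and did not pass the test (log2 fold change -0.34 ± 0.75, adjusted p = 0.688). The summed hepatocyte markers had a median of 25556 CPM in healthy and 428 CPM in acute libraries. With hepatocyte RNA so unequal, the Cyp2b2 level cannot show whether the groups differed in phenobarbital.

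Antioxidant genes under NRF2 rose in 11 of 23 cases and fell in 2, where 35.5% of all genes tested were higher and 37.9% lower. Nqo1, a quinone reductase, was between 36.2 and 118 CPM (median 54.3) in healthy libraries and at 1033, 829, 759, 498 and 899 CPM in acute ones (log2 fold change 3.77 ± 0.28, adjusted p = 1.81e-07), and Slc7a11, the cystine transporter, between 0.191 and 1.14 CPM (median 0.434) and at 82.2, 109, 85.8, 58.4 and 73.1 CPM (log2 fold change 7.48 ± 0.41, adjusted p = 1.48e-08). Txnrd1 (log2 fold change 2.23 ± 0.30, adjusted p = 2.99e-05) and Srxn1 (log2 fold change 2.70 ± 0.30, adjusted p = 4.68e-06) rose, Nfe2l2, the gene for NRF2, did not pass the test (log2 fold change 0.34 ± 0.22, adjusted p = 0.171), and the glutathione transferases Gstm1 (log2 fold change -3.71 ± 0.60, adjusted p = 0.000117) and Gsta4 (log2 fold change -5.33 ± 1.03, adjusted p = 0.000454) fell. Asns, the asparagine synthetase of the amino acid response, was between 6.0 and 15.7 CPM (median 9.08) and at 210.3, 174, 253, 219 and 209 CPM (log2 fold change 4.57 ± 0.23, adjusted p = 7.83e-09), and the amino acid transporters Slc1a4 (log2 fold change 2.16 ± 0.27, adjusted p = 1.3e-05) and Slc7a6 (log2 fold change 3.48 ± 0.19, adjusted p = 1.28e-08) rose, as part of 8 of 18 transporters higher and 3 lower. Hif1a, the hypoxia factor, was between 33.3 and 108 CPM (median 77.5) and at 656, 516, 625, 595 and 784 CPM (log2 fold change 3.23 ± 0.31, adjusted p = 1.42e-06), and the glucose transporter Slc2a1 between 9.62 and 70.6 CPM (median 46.5) and at 358, 201, 490.4, 288 and 592 CPM (log2 fold change 3.38 ± 0.49, adjusted p = 4.56e-05). Hypoxia and glycolysis genes as a list, however, had 9 higher and 10 lower of 29, near the shares of all genes tested.

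Genes of protein turnover rose in part. Of 33 proteasome genes tested, 21 rose and 4 fell (median log2 fold change 1.16). Psma4 was between 14.2 and 35.3 CPM (median 16.4) in healthy libraries and at 199, 194, 180.0, 189 and 181 CPM in acute ones (log2 fold change 3.32 ± 0.22, adjusted p = 5.54e-08), and Psmd1 (log2 fold change 2.69 ± 0.18, adjusted p = 7.55e-08) and Psmc6 (log2 fold change 2.63 ± 0.32, adjusted p = 1.06e-05) rose. The members that fell included the interferon-induced subunits of the immunoproteasome, Psmb8 (log2 fold change -1.65 ± 0.35, adjusted p = 0.000852), Psmb9 (log2 fold change -2.55 ± 0.30, adjusted p = 8.04e-06) and Psmb10 (log2 fold change -2.10 ± 0.29, adjusted p = 3.21e-05). Interferon-stimulated genes fell in 26 of 31 cases and rose in 3, Irf1 being between 2901 and 4497 CPM (median 3614) and at 62.2, 80.1, 84.7, 71.4 and 130.2 CPM (log2 fold change -5.45 ± 0.20, adjusted p = 1.77e-09), and the guanylate-binding protein gene Gbp2 rose (log2 fold change 1.91 ± 0.31, adjusted p = 0.000119). Antigen presentation genes fell in 19 of 22 cases, with the peptide transporter Tap1 (log2 fold change -3.17 ± 0.35, adjusted p = 5.43e-06) and the invariant chain Cd74 (log2 fold change -2.87 ± 0.53, adjusted p = 0.000342) among them. Of 32 lysosomal genes 25 fell and 0 rose. Psap, which encodes the saposin precursor and was among the 10 most counted genes of healthy LSECs, was between 3357 and 7911 CPM (median 7026) and at 976, 711, 833, 766 and 699 CPM (log2 fold change -2.91 ± 0.23, adjusted p = 2.8e-07), while Ctsl was among the 10 most counted in both groups and passed the p threshold but not the fold of 1.5 (log2 fold change -0.47 ± 0.20, adjusted p = 0.043).

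Targets of p53 and CDK inhibitors rose in 12 of 22 cases and fell in 7. Ccng1, a cyclin G induced by p53, was between 9.22 and 39.7 CPM (median 18.8) in healthy libraries and at 356, 316, 406, 235 and 425 CPM in acute ones (log2 fold change 4.08 ± 0.33, adjusted p = 3.18e-07). The nuclease gene Aen (log2 fold change 4.79 ± 0.20, adjusted p = 2.93e-09), the receptor gene Eda2r (log2 fold change 6.02 ± 0.40, adjusted p = 6.73e-08) and the CDK inhibitor Cdkn2b (log2 fold change 5.27 ± 0.32, adjusted p = 3.6e-08) rose, and the CDK inhibitor Cdkn1c fell (log2 fold change -3.18 ± 0.34, adjusted p = 3.49e-06). Genes of cell division did not rise together, with 7 of 35 higher and 15 lower, where 35.5% of all genes tested were higher and 37.9% lower. Ccnd1, the cyclin of entry into the cycle, fell (log2 fold change -2.75 ± 0.21, adjusted p = 1.89e-07). Of 40 histone and DNA modifying enzymes 22 rose, Suz12 of the Polycomb complex (log2 fold change 2.53 ± 0.39, adjusted p = 8.3e-05) among them, and 10 fell, with Hdac7 (log2 fold change -2.98 ± 0.19, adjusted p = 4.03e-08) and Kdm6b (log2 fold change -2.46 ± 0.19, adjusted p = 2.09e-07) among them. Vesicle biogenesis and exocytosis are the route of secretion on which the study centred. Of 29 such genes 10 rose and 17 fell, beside 35.5% and 37.9% of all genes tested. The vesicle marker Cd63 (log2 fold change 1.27 ± 0.19, adjusted p = 5.37e-05) and the ESCRT genes Stam (log2 fold change 2.84 ± 0.22, adjusted p = 2.79e-07) and Vps4b (log2 fold change 1.35 ± 0.25, adjusted p = 0.00035) rose, and the tetraspanins Cd81 (log2 fold change -3.24 ± 0.18, adjusted p = 1.61e-08) and Cd9 (log2 fold change -2.88 ± 0.48, adjusted p = 0.000144) and the vesicle docking GTPase Rab27a (log2 fold change -2.91 ± 0.18, adjusted p = 4.37e-08) fell. The study reports that Cd9 and Cd81, among other vesicle genes, were up-regulated depending on stage, and its text does not name the stage. Both were lower here after 2 weeks.

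Markers of other liver cells were lower in acute libraries for the most part. All 26 hepatocyte markers fell (median log2 fold change -5.40). Their summed level was between 1627 and 35026 CPM in healthy libraries, lowest in replicates 5 and 3, and between 182 and 1128 CPM in acute ones. Alb, the albumin gene, was between 262 and 11325 CPM (median 5960.1) in healthy libraries and at 230.5, 153, 65.6, 633 and 206 CPM in acute ones (log2 fold change -3.84 ± 0.94, adjusted p = 0.00254), and healthy replicate 5 lay inside the acute range. In bulk samples fewer cells of a type and less RNA per cell cannot be told apart. Of 23 Kupffer cell and macrophage markers 17 fell and 2 rose. The Kupffer cell lectin Clec4f was between 41.3 and 1066 CPM (median 473) and at 23.3, 23.5, 10.2, 13 and 5.36 CPM (log2 fold change -4.40 ± 0.82, adjusted p = 0.00036), whereas Spp1, osteopontin, was between 0.159 and 0.478 CPM (median 0.405) and at 60, 96.3, 85.4, 98.9 and 34 CPM (log2 fold change 7.67 ± 0.49, adjusted p = 5.26e-08) and Gpnmb between 9.49 and 90.7 CPM (median 53) and at 311, 299, 277, 389 and 97.5 CPM (log2 fold change 2.83 ± 0.64, adjusted p = 0.00137). The summed macrophage markers were between 1344 and 5618 CPM in healthy and between 1328 and 2301 CPM in acute libraries. Lymphocyte markers fell in 12 of 16 cases and rose in 0, with sums of 136 to 919 CPM against 30.8 to 60.1 CPM. Of 20 stellate cell and fibroblast markers 14 fell and 1 rose, and Reln, which LSECs and lymphatic endothelium also express, was the one that rose, from between 113 and 194 CPM (median 156) to 1551, 1989, 1530.4, 1228 and 1630.0 CPM (log2 fold change 3.37 ± 0.18, adjusted p = 1.15e-08). The desmin gene Des fell and was at 8.55 ± 2.22 CPM in healthy and 0.50 ± 0.466 CPM in acute libraries (mean ± SD). Of 11 cholangiocyte and mesothelial markers 8 fell and 1, Spp1, rose, and of 3 neutrophil markers tested Fcnb (log2 fold change -10.30 ± 1.25, adjusted p = 1.14e-05) and Csf3r (log2 fold change -4.64 ± 0.85, adjusted p = 0.000306) fell and Lcn2 (log2 fold change 2.45 ± 0.67, adjusted p = 0.0049) rose, a call that ended when libraries were weighted by their quality (log2 fold change 1.51, adjusted p = 0.0813 by limma-voom). Stab1 and Gata4 were lower in every acute library than in every healthy one, so that their order among libraries cannot show the part of hepatocytes. The part of other liver cells in the results was not tested.

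Some genes were near absent in one group and well counted in the other. At 2 CPM or less in every healthy library and 20 CPM or more in every acute one, 13 genes were called. Stfa2l1, a stefin A-like protease inhibitor, had 0 counts in all 6 healthy libraries and was at 44.2, 42.6, 26.9, 23.6 and 45.3 CPM in acute ones, so that its mean was at least 379-fold higher when healthy libraries are set at 3 counts each, and it is one of 16 genes listed at 0 in every healthy library. The others with the largest folds were Mmp3, Cyp1a1, Spp1, Slc7a11, the protease gene Tll1 (log2 fold change 7.48), the long noncoding RNA Pvt1 (7.18), Nat8l (6.60), Prrg4 (6.39) and Gpr85 (6.25). In the other direction 43 genes were called, and Eln, Pck1, Adh1, Mat1a, Endou (-8.58), Egr4 (-8.25) and Wnt9b were among them.

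Some genes of this class were listed at 0 in a pattern that followed the groups of libraries. Hnrnpab (ENSRNOG00000046272), an RNA-binding protein gene of most cells, was at 109 ± 40.4 CPM in healthy libraries (mean ± SD, TMM factors over the 22 CCl4 libraries) and was listed at 0 counts in all 5 acute libraries and in all 5 libraries of rats treated for 6 weeks, yet at 143 ± 19.4 CPM in the 6 libraries labelled CCL4 treated. Chchd2 (ENSRNOG00000051180), a mitochondrial protein gene, was at 93.4 ± 28.8 CPM, 0, 0 and 52.3 ± 14.3 CPM in the same order. In all, 28 genes were listed at 0 in every acute library with at least 10 counts in every healthy one, and 12 of these were also at 0 in every 6-week library and had at least 10 counts in every library labelled CCL4 treated, among them Hdac6, Mepce, Rmnd5b and 1 of the 2 gene IDs of Nfs1. In the other direction 16 genes were at 0 in every healthy library. Rps6, a ribosomal protein gene, has 2 gene IDs in the files, and the one (ENSRNOG00000007663) was at 84.8 ± 9.04 CPM in healthy and 894 ± 96.1 CPM in acute libraries, the other (ENSRNOG00000049025) at 85.0 ± 27.7 and 33.4 ± 30.7 CPM. Of 103 symbols with several IDs tested, 7 were called in opposite directions. No fold is given for the genes named in this paragraph, and whether all libraries were quantified with identical settings is not given in the sources used here.

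Levels of leading genes at the later stages are given side by side, with no test, since every stage is read against the same healthy libraries. Stab2 was at 148 ± 71.7 CPM after 2 weeks (mean ± SD over the 22 CCl4 libraries scaled together), 179.7 ± 55.5 CPM after 6 weeks and 3295 ± 553 CPM in libraries labelled CCL4 treated, which the study's methods place at 12 to 14 weeks, against 3483 ± 1304 CPM in healthy LSECs. Vwf followed the same order, at 10.7 ± 4.93, 25.1 ± 10.1, 2353 ± 868 and 2303 ± 1067 CPM. Mmp13 was at 91.3 ± 86.2, 94.5 ± 25.2, 0.283 ± 0.171 and 0.0352 ± 0.0368 CPM in the same order. In each of these genes the 2-week and 6-week libraries lay on one side and the healthy and CCL4 treated libraries on the other. The summed immediate-early level was between 7506 and 10186 CPM after 6 weeks and between 27883 and 56260 CPM in CCL4 treated libraries.

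**Figure D5:**
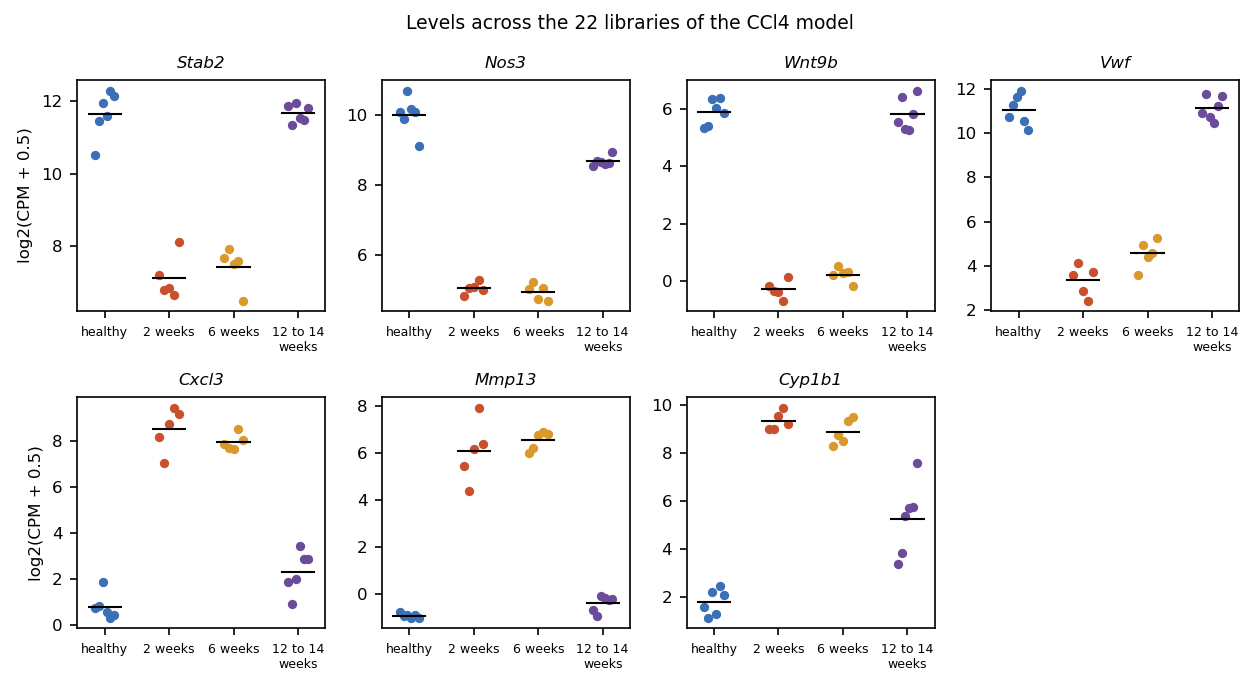
Log2(CPM + 0.5) of 7 genes in the 22 libraries of the CCl4 model, by group, with each point a library and the line the group mean. The 2-week and 6-week libraries lie close together for all 7 genes, with Stab2, Nos3, Wnt9b and Vwf low and Cxcl3, Mmp13 and Cyp1b1 high, and the mean of the 12 to 14 week libraries lies nearer to the healthy than to the 2-week mean for each of the 7.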

How the data were processed

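PolyA RNA of LSEC preparations was sequenced. According to the submitters' processing notes and the methods, the authors trimmed reads with Trim Galore, aligned them with STAR to the rat genome Rnor_6.0 and deposited expected counts per gene from RSEM, with versions not given in the sources used here. These deposited values were rounded before use. Genes were kept with edgeR's filterByExpr (version 4.0.16), libraries were scaled by TMM, and acute and healthy libraries were compared with limma-voom (limma 3.58.1, R 4.3.3), with Benjamini-Hochberg adjustment over all 14317 genes tested. The labels do not say that replicates came from separate rats, and p-values measure the spread between these samples. The fit was tested on simulated data. Sums over lists and levels used TMM-scaled CPM. Promoters were matched by symbol to RefSeq (GRCr8), and no coordinates of the deposited genes were used. By rule the text names the 12 largest rises and falls among called genes that averaged 3 or more on the log2 CPM scale and whose groups did not overlap, up to 4 in each direction per list, all cell type markers, the 10 most counted genes of each group and the 10 largest differences among genes near absent in one group. Some genes the rule gives are not reported here. A further 38 called genes lie outside this rule and were chosen for their known roles after their values were seen: Ahrr, Bmp6, Cd34, Cd63, Cd81, Cd9, Ece1, Egr1, Fn1, Gata4, Gja5, Hbegf, Hdac6, Id1, Id3, Il10, Itga2, Itga4, Itga5, Itgb1, Jun, Junb, Lfng, Lif, Mmp10, Mmp2, Notch1, Plat, Plau, Ptgis, Ptgs1, Rab27a, Smad7, Sparc, Tgfb1, Timp1, Txnrd1 and Vps4b. Pf4, Tfpi, F8 and Serpine2 were also named, as called members of their lists. The lists and members were chosen with earlier results of these data known. Alternatives were other normalizations, edgeR's quasi-likelihood test, DESeq2 (1.42.0), filters, thresholds, weights, samples left out and a replicate block. The 10 thioacetamide libraries were not used.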

Additional observations from a re-analysis of the deposited data

Results flagged for a closer look

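In 98 groups of values tested for a single distant sample, 3 were found, where chance gives about 4.9. Healthy replicate 2 had an Ampd3 level of 1.447 log2 CPM, with the other healthy libraries between 2.587 and 3.215 (gap 0.644 of the range), which lies on the side that enlarges the rise in acute libraries. Healthy replicate 6 had an Actg1 level of 10.4 log2 CPM against 11.26 to 11.77 in the others (gap 0.627 of the range). Acute replicate 4 had 36916992 counts against 32037715 to 32986854 in the other acute libraries (gap 0.805 of the range).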

How the results depend on the processing

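The count of 10502 genes called stayed within 1.5 times of itself under every alternative run, from 8792 with a fold above 2 to 12653 with no filter on low counts, and no named gene reversed direction. Scaling by library totals alone gave 6132 genes higher and 4408 lower. Leaving out 1 library at a time gave 10096 to 10559 called genes, 4923 to 5366 higher and 4975 to 5476 lower. edgeR called 10456 and DESeq2 10619. Replicate numbers are shared by 4 pairs of libraries, whose deviations correlated at 0.04 to 0.17, so that they were not taken as pairs. A replicate block over those pairs called 10896 genes, and the same libraries without the block, a comparison chosen after seeing the data, called 10836. Depth limited genes with a few healthy counts, whose fold is known only roughly. Some named endothelial genes that did not pass the test passed it under an alternative. Without healthy replicate 2, Lyve1 fell (log2 fold change -0.76, adjusted p = 0.0169 by limma-voom) and so did Sox17 (-0.84, adjusted p = 0.00611). Without acute replicate 8, Cd36 rose (1.22, adjusted p = 0.022). Scaling by library totals alone made Cdh5 (0.80, adjusted p = 0.0123), Adgrl4 (1.01, adjusted p = 0.0234) and Nfe2l2 (0.74, adjusted p = 0.00652) higher. The same scaling made Vegfb higher (1.18, adjusted p = 0.0124 by limma-voom). Nrp2 was lower by edgeR's quasi-likelihood test (-0.68, adjusted p = 0.0431) and by DESeq2 (-0.62, adjusted p = 0.0465). Nrp1 was higher with the replicate block (0.75, adjusted p = 0.00117 by limma-voom). Sample weights made Calcrl (0.99, adjusted p = 0.0107) and Msr1 (0.74, adjusted p = 0.0222) higher and Notch2 (-0.85, adjusted p = 0.00842) lower, and Mmp9 rose without healthy replicate 1 (1.86, adjusted p = 0.0303). The cause was not tested.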
